A study of Equus asinus with 2 samples.

Results

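Anti-Müllerian hormone, encoded by AMH, and its own receptor, encoded by AMHR2, were described across the cell types of the fetal donkey gonad. The 2 genes were taken by symbol from the 38517 features of the deposited tables, and their values are UMIs (unique molecular identifiers, so that 1 UMI stands for 1 captured transcript). Both genes were measured in both libraries. The study is a single-cell RNA atlas of early gonad development in Equus asinus. It holds 1 library of tissue labelled ovary at 8 weeks of gestation and 1 library of gonad together with mesonephros, the transient embryonic kidney, at 4 weeks. The labels name no genotype, treatment or number of fetuses, and describe 1 droplet protocol for both. Stage, dissected tissue and library differed together and cannot be told apart, and with 1 library per stage no test between the stages was possible.

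AMH is a secreted glycoprotein of the TGF-beta family that is made by the Sertoli cells of the fetal testis and causes the Müllerian ducts, the forerunners of oviduct and uterus, to regress. It binds AMHR2, a type II receptor with no other known ligand, which then works through the type I receptors and the SMAD proteins of the BMP pathway. In the mouse, AMHR2 is known from the mesenchyme around the Müllerian duct, the coelomic epithelium over it, and the Sertoli, Leydig and granulosa cells of the gonad.

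The 8-week library held 155128130 UMIs in 14593 barcodes, with a median of 5880 UMIs in the 14590 cells kept. The 4-week library held 122341903 UMIs in 8938 barcodes, with a median of 7775.5 in the 8912 cells kept, and the libraries shared 38 barcode sequences. AMH was an abundant RNA in both, with 79798 UMIs (514 CPM, UMIs of the gene per 1000000 UMIs) at 8 weeks and 51371 UMIs (420 CPM) at 4 weeks. AMHR2 was a rare RNA, with 785 UMIs in 645 cells (5.06 CPM) at 8 weeks and 644 UMIs in 503 cells (5.26 CPM) at 4 weeks. No barcode held more than 4 AMHR2 UMIs in either library. Levels of AMHR2 are therefore given over summed cells.

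Cells were put into classes by gates on marker genes, in which AMH and AMHR2 played no part. The Sertoli gate used SOX9, DHH, PTGDS and HSD17B3 and took 629 cells at 8 weeks and 521 at 4 weeks. Of 10 Sertoli genes that the gate did not use, 8 were 2-fold or more above the rest of the cells in each library. The pre-granulosa gate, for the somatic partners of the female germ cells, took 0 cells of the library labelled ovary and 27 cells at 4 weeks. In those 27 cells 0 of 5 further pre-granulosa genes stood 2-fold over other cells, so they are not named and not used. FOXL2, a transcription factor of granulosa cells, had 0 UMIs in the 8-week Sertoli-gated cells, which allows up to 0.249 CPM, and 4 UMIs in those at 4 weeks. The Sertoli-gated cells of the library labelled ovary thus carried Sertoli genes that the gate did not use, against the label. Cells that passed several gates (370 at 8 weeks, 378 at 4 weeks) or none (3323 and 2765) are called mixed and ungated.

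AMH was highest by far in Sertoli-gated cells at both stages. It stood at 3935 CPM there at 8 weeks (95% interval 3899.5 to 3970.5, from 47374 UMIs) and at 2961 CPM at 4 weeks (2930.3 to 2992, from 35059 UMIs). All intervals given here cover counting error only, with no spread between animals. Sertoli-gated cells were 4.31% of the cells at 8 weeks and held 59.4% of the library's AMH UMIs, and those at 4 weeks held 68.2%. Among the other gated classes, germ cells came next at 8 weeks with 372 CPM (362 to 383), and stood at 235 CPM (225 to 246) at 4 weeks. Steroidogenic-gated cells, which carry the androgen enzymes of fetal Leydig cells, held 176 CPM (165 to 186) at 8 weeks and 247 CPM (231 to 263) at 4 weeks. At 4 weeks the intervals of germ and steroidogenic cells overlapped, so their order there is not resolved. Coelomic epithelium, which covers the gonad, stood between them at 8 weeks with 212 CPM (189.9 to 237), and held 66.9 CPM (52.0 to 84.6) at 4 weeks.

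Endothelial cells should lack AMH and serve as the measure of free RNA, which droplets pick up from the suspension. They held 50.7 CPM (44.7 to 57.4) at 8 weeks and 33.8 CPM (31.1 to 36.6) at 4 weeks, so that the Sertoli-gated level was 77.6-fold higher (68.6 to 88.1) at 8 weeks and 87.6-fold higher (80.8 to 95.2) at 4 weeks. Stroma-gated cells stood at 69.8 CPM at 8 weeks and 28.0 CPM at 4 weeks, smooth-muscle-gated cells at 109 and 28.4 CPM, and erythroid-gated cells at 68.1 and 27.9 CPM. Macrophage-gated cells, which should also lack the hormone, held 152 CPM (141 to 164) at 8 weeks and 15.3 CPM (7.90 to 26.7) at 4 weeks. At 4 weeks the mesonephric classes held 32.5 CPM in proximal tubule, 48.6 CPM in distal tubule or duct and 16.8 CPM in podocytes. In each of the classes with at least 35 cells in both libraries, other than steroidogenic cells and other leukocytes (25.4 CPM at 8 weeks, 91.3 CPM at 4 weeks), AMH was higher at 8 weeks than at 4 weeks.

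**Figure D1:**
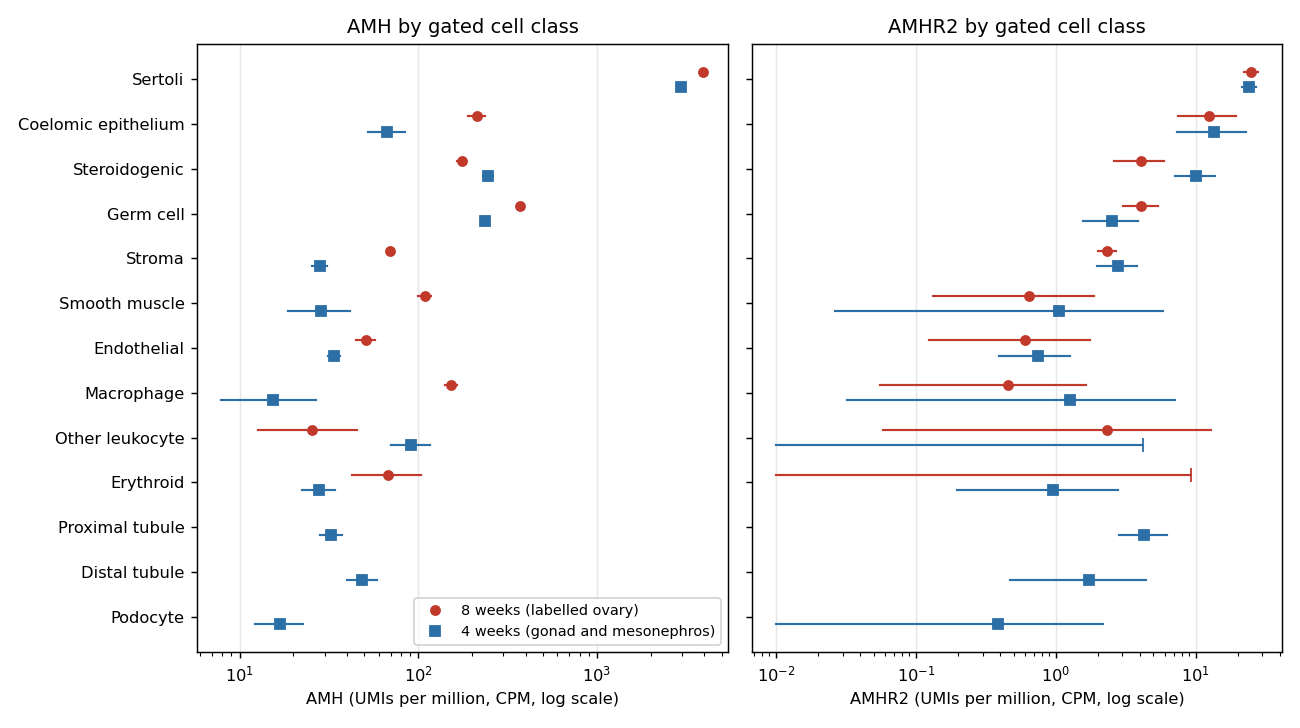
Levels of AMH (left) and AMHR2 (right) in CPM on log axes, for each gated cell class, with 8 weeks as red circles and 4 weeks as blue squares. Lines are 95% counting intervals, cut at the left edge of the axis; a line that ends in a tick with no symbol marks a class with 0 UMIs and the level 3 counts would give. AMH stands far to the right in Sertoli-gated cells (3935 and 2961 CPM), while AMHR2 falls off more gradually over Sertoli-gated, coelomic epithelium and steroidogenic cells.

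The share of cells with an AMH UMI also set Sertoli-gated cells apart. After every cell was thinned to 1000 UMIs, 92.9% (90.6 to 94.8) of the Sertoli-gated cells held AMH at 8 weeks and 89.1% (86.1 to 91.6) at 4 weeks. In endothelial-gated cells the shares were 5.57% (3.6 to 8.17) at 8 weeks and 3.52% (2.56 to 4.71) at 4 weeks. Without thinning, at medians of 16405 and 16775 UMIs, 98.7% of the Sertoli-gated cells at 8 weeks and 98.5% at 4 weeks held AMH, against 30.8% and 19.6% of endothelial-gated cells at medians of 5690.5 and 7148 UMIs. The thinned shares in stroma (6.96% at 8 weeks, 1.56% at 4 weeks), smooth muscle (6.05% and 6.03%) and proximal tubule (3.28% at 4 weeks) lay within the endothelial interval or below it, apart from smooth muscle at 4 weeks, whose own interval of 2.46 to 12.0% covers the endothelial share. The part of free RNA in these shares was not tested. The summed AMH level at 8 weeks was nonetheless above the endothelial one in stroma, 1.38-fold (1.21 to 1.57), and in smooth muscle, 2.14-fold (1.84 to 2.5). The thinned share of steroidogenic-gated cells had an interval above the endothelial one, with 12.0% (8.34 to 16.5) at 8 weeks and 20.4% (14.9 to 26.9) at 4 weeks. So did that of germ-cell-gated cells, with 10.6% (8.66 to 12.9) and 9.15% (6.73 to 12.1).

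Within the Sertoli gate, AMH was carried by nearly every cell and not by a few. The median cell held 64 AMH UMIs at 8 weeks (quartiles 32 and 111) and 50 at 4 weeks (quartiles 27 and 99), and the highest cell held 253 and 283. On the scale of each cell's own CPM, the 5th percentile, median and 95th percentile were 1065, 4160 and 11036 at 8 weeks, and 872, 2968 and 5989 at 4 weeks. The spread at 8 weeks was thus wider at the upper end. Cells with 0 AMH UMIs numbered 8 in each library, and 600 of 629 cells at 8 weeks (95.4%) and 491 of 521 at 4 weeks (94.2%) reached 1000 CPM. The 10% of Sertoli-gated cells with the most AMH held 24.5% of the class's AMH UMIs at 8 weeks and 27.1% at 4 weeks.

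**Figure D2:**
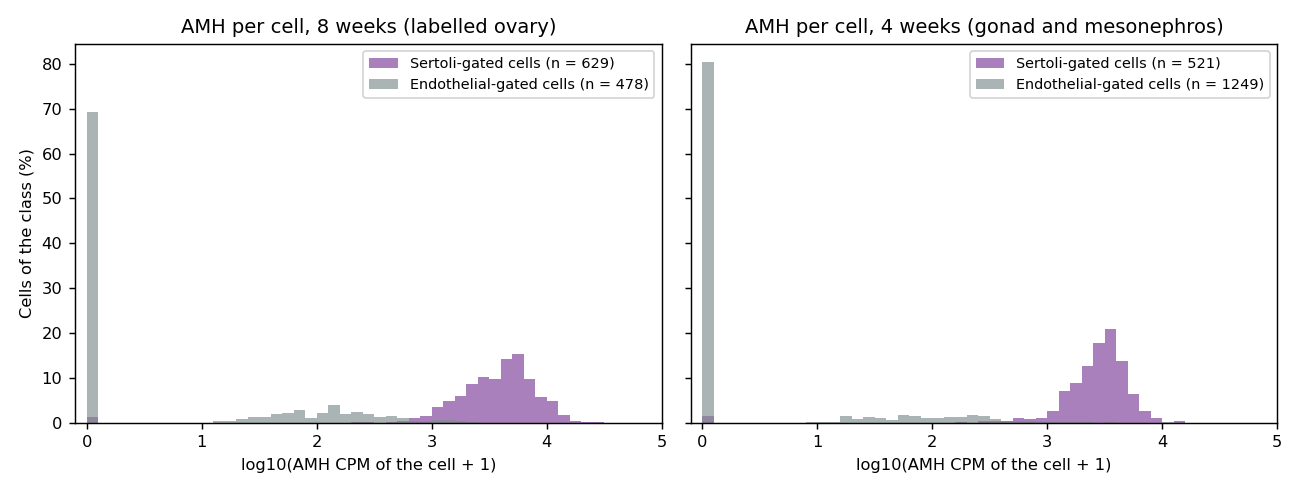
Distribution of AMH per cell, as log10 of the cell's CPM plus 1, in Sertoli-gated cells (purple) and endothelial-gated cells (grey) at 8 weeks (left) and 4 weeks (right); the vertical axis is the percentage of cells of the class. Sertoli-gated cells form 1 peak around medians of 4160 and 2968 CPM, and most endothelial-gated cells stand at 0.

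AMH in the other classes was spread unevenly. The top 10% of cells held 82.9% of the AMH UMIs of steroidogenic-gated cells at 8 weeks and 78.7% at 4 weeks. In germ-cell-gated cells the shares were 90.0% and 93.5%, and in endothelial-gated cells 60.9% and 79.7%. Cells at 1000 CPM of AMH or more numbered 33 of 321 in the steroidogenic gate at 8 weeks and 40 of 195 at 4 weeks. The 33 cells had a median of 1538 UMIs, against 15862 in their whole class, and the 40 cells 3435.5, against 20099. They held SOX9 at 216 CPM at 8 weeks and 361 CPM at 4 weeks, beside CYP17A1, the enzyme of androgen synthesis, at 10617 and 3318 CPM. Without these cells, steroidogenic-gated cells held AMH at 55.4 CPM (49.6 to 61.7) at 8 weeks and 47.4 CPM (40.4 to 55.3) at 4 weeks. The 2 intervals overlapped, so the order of the stages was then not resolved. AMH in germ-cell-gated cells without such cells was 106 CPM (99.4 to 112) and 93.4 CPM (86.6 to 100.5). Endothelial-gated cells treated in the same way held 38.0 CPM (32.7 to 43.8) and 22.9 CPM (20.7 to 25.3), below both classes.

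Germ-cell-gated cells with at least 1000 CPM of AMH, 69 at 8 weeks and 26 at 4 weeks, were deep rather than shallow, with medians of 25388 and 32874.5 UMIs against 9933 and 14049 in their class. Of these, 51 and 22 held a SOX9 UMI. Of the 758 macrophage-gated cells at 8 weeks, 17 reached 1000 CPM of AMH, and 6 of the 17 held SOX9, beside 1867 CPM of the complement gene C1QA. Without such cells AMH in macrophage-gated cells was 55.1 CPM (48.2 to 62.6) at 8 weeks and 10.2 CPM (4.42 to 20.2) at 4 weeks. Whether these barcodes hold more than 1 cell was not tested.

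In all, 1465 cells at 8 weeks and 860 at 4 weeks reached 1000 CPM of AMH, of which 41.0% and 57.1% lay in the Sertoli gate. Ungated cells made up 35.0% of them at 8 weeks (513 cells, median 1950 UMIs) and 18.5% at 4 weeks (159 cells, median 2927 UMIs). The 513 ungated cells held SOX9 at 147 CPM, INHA at 99.1 CPM and DMRT1 at 54.0 CPM, and the 159 cells held SOX9 at 232 CPM. Over all ungated cells AMH was 706 CPM at 8 weeks and 104 CPM at 4 weeks, and over mixed cells 643 and 1063 CPM. In cells just inside the Sertoli gate, with scores of 0.15 to 0.2, AMH was 3053 CPM at 8 weeks (162 cells) and 2209 CPM at 4 weeks (62 cells), and just outside it, with scores of 0.1 to 0.15, 1973 CPM (209 cells) and 1286 CPM (90 cells). AMHR2 in the same cells was 23.2 and 19.7 CPM inside and 14.9 and 11.5 CPM outside.

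Between the stages, AMH in Sertoli-gated cells was 1.33-fold higher at 8 weeks than at 4 weeks (1.31 to 1.35), a difference of 0.41 on the log2 scale. The median gene of these cells was at 0.899 of its 4-week level (log2 -0.15), and relative to it AMH was 1.48-fold higher (1.46 to 1.499). Neither AMH nor AMHR2 passed 2-fold in Sertoli-gated cells, where 7.26% of 18647 genes were at least 2-fold higher at 8 weeks and 13.6% at least 2-fold lower. The difference in AMH was larger than counting error, and the spread between fetuses is not known.

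AMHR2 was also highest in Sertoli-gated cells, and there it stood nearly level between the stages. It was 25.1 CPM (22.3 to 28.1, 302 UMIs) at 8 weeks and 24.1 CPM (21.4 to 27.0, 285 UMIs) at 4 weeks, a ratio of 1.04 with an interval of 0.883 to 1.23. The interval holds counting error only. Without thinning, a UMI of the receptor was found in 227 of 629 Sertoli-gated cells (36.1%, 32.3 to 40.0) at 8 weeks. At 4 weeks it was found in 201 of 521 (38.6%, 34.4 to 42.9). Most of these cells held 1 UMI (166 at 8 weeks, 138 at 4 weeks), and 13 and 18 cells held 3 or more. In endothelial-gated cells, the class that should lack it, the counts without thinning were 3 of 478 and 13 of 1249. Their median depths were lower, at 5690.5 and 7148 UMIs against 16405 and 16775. After thinning to 1000 UMIs, 2.57% (1.47 to 4.14) of the Sertoli-gated cells at 8 weeks and 3.84% (2.36 to 5.87) at 4 weeks held AMHR2. Endothelial-gated cells then held it in 0 of 431 and 0 of 1222 cells.

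The coelomic or surface epithelium was the class with the next highest AMHR2 at both stages. It held 12.5 CPM (7.52 to 19.5, 19 UMIs in 63 cells) at 8 weeks and 13.6 CPM (7.42 to 22.8, 14 UMIs in 39 cells) at 4 weeks. These levels were 49.8% of the Sertoli-gated level at 8 weeks and 56.4% at 4 weeks, while AMH in the same cells was at 5.399% and 2.26% of its Sertoli-gated level. The level was 20.8-fold over endothelial-gated cells (6.12 to 110) at 8 weeks and 18.2-fold (7.95 to 42.1) at 4 weeks. Without cells at 1000 CPM of AMH it was 13.4 CPM and 12.8 CPM. The class is small, and 4 of 5 further genes of this epithelium stood 2-fold over other cells at 8 weeks and 5 of 5 at 4 weeks.

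Steroidogenic-gated cells differed in AMHR2 between the stages. They held 4.04 CPM (2.61 to 5.96, 25 UMIs) at 8 weeks and 10.04 CPM (7.103 to 13.8, 38 UMIs) at 4 weeks, which is 2.48-fold lower at 8 weeks (1.46 to 4.29). Without thinning, a UMI was found in 22 of 321 cells (6.85%) at 8 weeks and in 34 of 195 cells (17.4%) at 4 weeks. Median depth was 15862 and 20099 UMIs per cell, so these shares are not matched for depth. After thinning to 1000 UMIs, 4 of 267 cells at 8 weeks and 2 of 186 at 4 weeks held AMHR2, with overlapping intervals. With 2000 UMIs per cell the counts were 1 of 236 and 5 of 176. The thinned shares thus rest on few cells and do not settle a direction between the stages. By its level over summed cells, AMHR2 was 1 of 2 members past 2-fold in this class. Of 15506 genes there, 13.2% were at least 2-fold lower and 5.08% at least 2-fold higher at 8 weeks. The median gene there was at 0.847 of its 4-week level, and scaled to it the AMHR2 ratio was 0.475 (0.275 to 0.808). Without the cells at 1000 CPM of AMH the levels were 3.04 CPM and 8.78 CPM. At 4 weeks the steroidogenic and coelomic intervals overlapped, and at 8 weeks they did not.

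Stroma-gated cells held AMHR2 at a low level, in 177 of 7274 cells at 8 weeks and 32 of 1296 cells at 4 weeks. The level was 2.33 CPM (2.01 to 2.69, 188 UMIs) at 8 weeks and 2.78 CPM (1.97 to 3.82, 38 UMIs) at 4 weeks, a ratio of 0.840 (0.590 to 1.22). With a stricter gate (score of at least 0.2, chosen after seeing the data) the 4-week level was 1.39 CPM and the ratio 1.63 (0.860 to 3.47), so its direction is not settled. This was 3.88-fold over the endothelial level (1.31 to 19.0) at 8 weeks and 3.74-fold (1.95 to 7.64) at 4 weeks. At 8 weeks stroma held 23.9% of all AMHR2 UMIs of that library, second to the 38.5% of Sertoli-gated cells, and at 4 weeks 5.90% against 44.3%. Stroma cells with a UMI of GATA4, a transcription factor of the gonad, held 2.38 CPM (2.01 to 2.79) at 8 weeks and 3.35 CPM (2.24 to 4.81) at 4 weeks. Those without one held 2.18 CPM (1.54 to 3.01) and 1.80 CPM (0.82 to 3.41), so the intervals overlapped at both stages.

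Proximal tubule cells of the mesonephros held AMHR2 at 4.29 CPM (2.82 to 6.24, 27 UMIs in 811 cells) at 4 weeks, 5.76-fold over endothelial-gated cells (2.87 to 12.2). Distal tubule or duct held 1.72 CPM (0.469 to 4.40) and podocytes 0.390 CPM (0.0100 to 2.17), which did not differ from the endothelial level beyond counting error. Germ-cell-gated cells held 4.10 CPM (3.04 to 5.4) at 8 weeks and 2.54 CPM (1.57 to 3.89) at 4 weeks. Without cells at 1000 CPM of AMH these were 2.59 and 1.33 CPM, and the proximal tubule level was 4.15 CPM. The endothelial level itself was 0.601 CPM (0.124 to 1.76) at 8 weeks and 0.744 CPM (0.396 to 1.27) at 4 weeks. Macrophages with 0.456 and 1.27 CPM and smooth muscle with 0.646 and 1.05 CPM did not differ from it beyond counting error. Erythroid cells held 0 AMHR2 UMIs at 8 weeks, which allows up to 9.29 CPM in the 40 cells, and 3 UMIs at 4 weeks. Other leukocytes held 1 UMI at 8 weeks and 0 at 4 weeks, which allows up to 4.22 CPM.

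Müllerian duct epithelium, the target of the hormone, was not gated. Of 4 genes listed for it, WNT7A, a ligand of that epithelium, had 41 UMIs in 38 cells at 8 weeks and 19 UMIs in 16 cells at 4 weeks. PAX2 and LHX1, which the mesonephros also uses, had 15 and 30 UMIs at 8 weeks and 4533 and 3163 UMIs at 4 weeks. EMX2, which the coelomic epithelium uses as well, had 2869 and 4332 UMIs. The level of AMHR2 in duct mesenchyme could not be measured apart from other stroma.

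Classes differed in how many AMHR2 UMIs they held for their AMH UMIs. This ratio compares classes and not the genes' levels, since RNA length and capture differ between genes. Per 1000 AMH UMIs, Sertoli-gated cells held 6.37 AMHR2 UMIs (5.67 to 7.14) at 8 weeks and 8.13 (7.21 to 9.13) at 4 weeks. Coelomic epithelium held 58.8 (35.0 to 93.4) and 203 (105 to 364), stroma 33.5 (28.8 to 38.7) and 99.2 (69.1 to 139), and steroidogenic-gated cells 23.0 (14.8 to 34.2) and 40.7 (28.6 to 56.3). In proximal tubule at 4 weeks it was 132 (84.7 to 197). All of these intervals lie above the Sertoli interval of the same stage. Germ-cell-gated cells held 11.0 (8.15 to 14.5) and 10.8 (6.67 to 16.6). At 8 weeks macrophages, with 2.998 (0.362 to 10.9), and smooth muscle, with 5.95 (1.22 to 17.5), overlapped the Sertoli interval. Endothelial-gated cells held 11.9 (2.43 to 35.1) at 8 weeks and 22.0 (11.7 to 38.0) at 4 weeks, from 3 and 13 AMHR2 UMIs, and at 4 weeks their interval also lay above the Sertoli one.

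**Figure D3:**
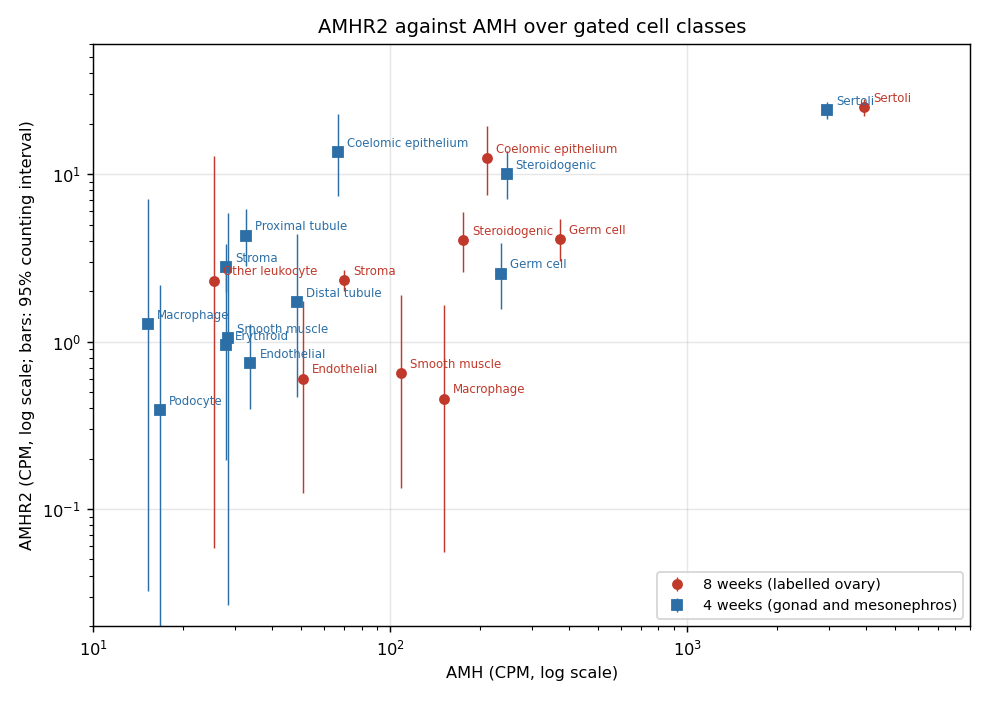
AMHR2 against AMH over gated cell classes, both in CPM on log axes, with 8 weeks as red circles and 4 weeks as blue squares and vertical bars for the 95% counting interval of AMHR2; classes with 0 AMHR2 UMIs cannot be drawn on this axis. Sertoli-gated cells lie at the upper right, and coelomic epithelium and proximal tubule lie above other classes of like AMH level.

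Cells that held both the hormone and its receptor were counted beside the product of the 2 shares. With cells thinned to 1000 UMIs, 16 of the 16 Sertoli-gated cells with AMHR2 at 8 weeks also held AMH, where the product of the shares gives 14.9. At 4 weeks 17 of 20 did, where the product gives 17.8. Since 92.9% and 89.1% of these cells held AMH, the counts left almost no room for an excess. Whether the genes go together within the class is not read from them. In stroma the 21 cells with AMHR2 at 8 weeks and the 1 cell at 4 weeks held no AMH, and the product gives 1.46 and 0.0156 cells. With 2000 UMIs per cell, 3 of 26 stroma cells with AMHR2 at 8 weeks and 0 of 4 at 4 weeks held AMH. None of the 4 proximal tubule cells with AMHR2 at 4 weeks held AMH. In steroidogenic-gated cells 3 of 4 cells with AMHR2 at 8 weeks and 1 of 2 at 4 weeks held AMH, where the product gives 0.479 and 0.409. With 2000 UMIs per cell these counts were 0 of 1 and 2 of 5.

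Within the Sertoli gate, AMHR2 was also compared over 4 equal bins of the cells ordered by their AMH level. At 8 weeks it was 17.9 CPM (13.6 to 23.0) in the lowest bin and 36.9 CPM (28.7 to 46.7) in the highest, with 25.6 and 25.2 CPM between. At 4 weeks it was 17.7 CPM (13.3 to 23.0) in the lowest bin, and 25.3, 27.0 and 26.9 CPM in the others, the last with an interval of 20.9 to 34.1 that overlapped the lowest. INHA, the alpha subunit of inhibin, was chosen after its values were seen. It ran the same way, with 81.6 CPM in the lowest and 224.5 CPM in the highest bin at 8 weeks and 117 and 229 CPM at 4 weeks. INHBB, a beta subunit, spanned less, with 87.2 and 97.3 CPM in the outer bins at 8 weeks and 118 and 141 CPM at 4 weeks. SOX9, a gating gene that activates AMH transcription, also spanned less than INHA. It held 289.6 and 347 CPM in the outer bins at 8 weeks and 548 and 586 CPM at 4 weeks.

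Markers of other cells and depth moved with these bins. POU5F1, a germ cell factor, stood at 53.9 CPM in the lowest and 10.2 CPM in the highest bin at 8 weeks, and at 134 and 21.0 CPM at 4 weeks. DCN, a stroma gene, stood at 196 and 82.9 CPM at 8 weeks and at 63.1 and 16.2 CPM at 4 weeks, while CYP17A1 was at 686 and 1422 CPM and at 459 and 703 CPM. Median depth was 19848 UMIs in the lowest and 9222.5 UMIs in the highest bin at 8 weeks, and 17578.5 and 14079 UMIs at 4 weeks. The part of depth and of other cells' RNA in these differences was not tested.

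**Figure D4:**
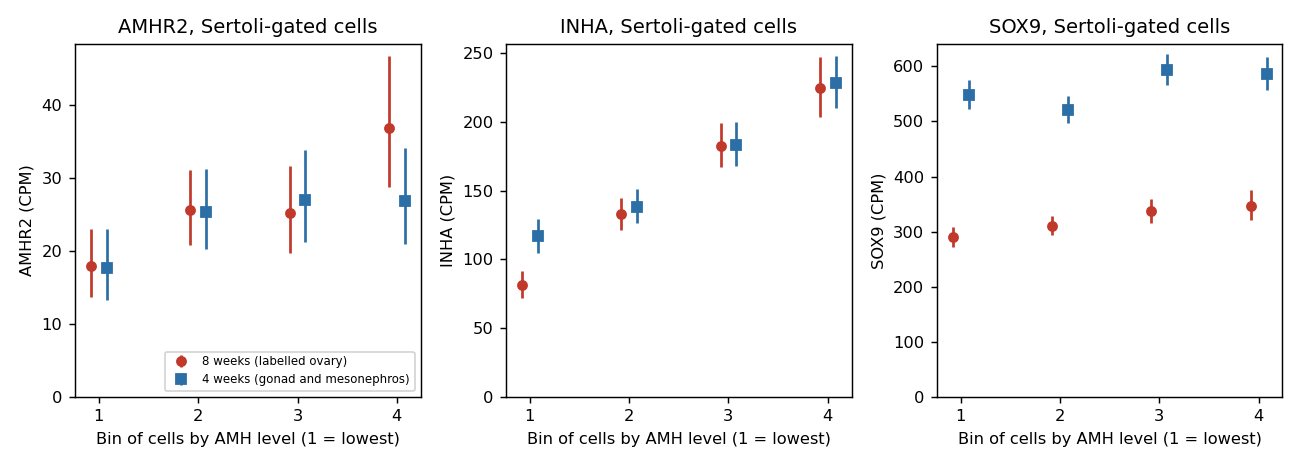
AMHR2 (left), INHA (middle) and SOX9 (right) in CPM over 4 equal bins of the Sertoli-gated cells, from the lowest AMH level (1) to the highest (4), with 8 weeks as red circles, 4 weeks as blue squares and 95% counting intervals as bars. INHA climbs over all bins at both stages, and SOX9 is lower at 8 weeks in every bin. AMHR2 is higher in the highest bin than in the lowest at both stages. The separate intervals of these outer bins stand apart at 8 weeks and overlap at 4 weeks, which does not show equal levels.

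Sertoli-gated cells with much cell cycle RNA held less AMH. The 112 cells at 8 weeks with at least 1000 CPM of cell cycle genes held AMH at 3310 CPM (3239 to 3383), against 4097 CPM (4057 to 4138) in the other 517 cells. At 4 weeks the 74 cycling cells held 2386 CPM (2325 to 2448), against 3109 CPM (3073 to 3145) in the other 447. AMHR2 in cycling and other cells was 19.7 and 26.5 CPM at 8 weeks and 21.5 and 24.7 CPM at 4 weeks, with overlapping intervals. Cycling cells were also deeper, with medians of 19461 UMIs at 8 weeks and 30714 at 4 weeks against 15878 and 14803. AMH was lower in the deeper part of the Sertoli-gated cells too, at 3532 CPM against 5435.5 CPM in the shallower part at 8 weeks and 2838 against 3460 CPM at 4 weeks, and the parts of depth and of the cell cycle were not separated.

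The AMH pathway was followed through 41 listed genes, of which 40 were analysed here. In Sertoli-gated cells 37 of them had enough UMIs for a ratio, and 2 were at least 2-fold higher and 4 at least 2-fold lower at 8 weeks. Their median log2 ratio was -0.42, against -0.18 over all genes. The shares, 2 and 4 of 37, lie beside the 7.26% and 13.6% of all genes given above, and no more is read from them. The lists were written with earlier results of these data known.

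The type I receptors that pair with AMHR2 were lower at 8 weeks in Sertoli-gated cells. BMPR1A held 58.1 CPM at 8 weeks and 93.4 CPM at 4 weeks, 1.61-fold lower (1.46 to 1.77), and ACVR1 38.9 and 89.8 CPM, 2.31-fold lower (2.07 to 2.58). BMPR2, a type II receptor of BMP ligands, held 116 CPM at 8 weeks and 208 CPM at 4 weeks. BMPR1A was higher in coelomic epithelium, with 149 CPM at 8 weeks and 157 CPM at 4 weeks, and in stroma, with 145 and 188 CPM. It was lower in steroidogenic-gated cells, with 35.7 and 43.8 CPM, and in endothelial-gated cells, with 12.6 and 7.90 CPM. BMPR1B, another listed type I receptor, is named here outside the rule after its values were seen. It held 3.95 CPM at 8 weeks and 142 CPM at 4 weeks in coelomic epithelium, and 7.50 and 41.9 CPM in stroma. Coelomic epithelium and stroma, which held AMHR2 beside AMH far below the Sertoli-gated level, thus held BMPR1A as well.

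Among the signal carriers, SMAD5 held 63.8 CPM at 8 weeks and 69.9 CPM at 4 weeks, and the common partner SMAD4 held 62.1 and 70.3 CPM. Their ratios of 0.912 and 0.884 lay close to the 0.899 of the median gene of the class. SMAD9, a rarer carrier, held 5.81 and 12.1 CPM, 2.08-fold lower at 8 weeks (1.55 to 2.81). The ubiquitin ligases SMURF1 and SMURF2, which limit BMP signalling, held 79.9 and 95.2 CPM at 8 weeks and 154 and 138 CPM at 4 weeks. The pseudoreceptor BAMBI, which also limits it, held 112 CPM at 8 weeks and 98.1 CPM at 4 weeks.

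Of the ID genes, transcription regulators that BMP-type SMADs induce, ID3 was 2.70-fold higher at 8 weeks (2.57 to 2.85), with 462 CPM against 171 CPM. ID1 held 856 CPM at 8 weeks and 491 CPM at 4 weeks (1.74-fold), ID2 62.5 and 47.8 CPM, and ID4 55.5 and 77.5 CPM. The difference was not confined to Sertoli-gated cells. In endothelial-gated cells, where AMHR2 was near 0, ID1 held 1331 CPM (1299 to 1363) at 8 weeks and 728 CPM (715 to 741) at 4 weeks, and ID3 966 and 379 CPM. In coelomic epithelium ID1 held 1614 CPM at 8 weeks and 509 CPM at 4 weeks.

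Of the listed enzymes that can cleave the AMH precursor to its active form, PCSK5 and PCSK6 differed, and FURIN did not beyond counting error. FURIN, named outside the rule after its values were seen, held 1.58 CPM at 8 weeks and 1.44 CPM at 4 weeks. Its ratio was 1.10 (0.541 to 2.25). PCSK5 held 82.2 CPM at 8 weeks and 193 CPM at 4 weeks, 2.35-fold lower (2.18 to 2.53), and PCSK6 2.74 and 29.0 CPM, 10.6-fold lower (7.38 to 15.6). CTNNB1, the beta-catenin gene through which duct regression runs in the mouse, held 174 CPM at 8 weeks and 206 CPM at 4 weeks.

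The known regulators of AMH transcription were mostly lower at 8 weeks in Sertoli-gated cells, where AMH was higher. SOX9, which switches AMH on, held 317 CPM at 8 weeks and 559 CPM at 4 weeks, 1.77-fold lower (1.70 to 1.84). WT1 held 130 and 235 CPM, GATA4 232 and 349.8 CPM, GATA6 115 and 173 CPM, and ZFPM2, a cofactor of GATA4, 296 and 415 CPM. DMRT1 held 70.4 CPM at 8 weeks and 78.8 CPM at 4 weeks, a ratio of 0.893 that lay close to that of the median gene. NR0B1, a repressor in the gonad, went the other way with 59.6 CPM at 8 weeks and 32.1 CPM at 4 weeks, 1.86-fold higher (1.64 to 2.11). LHX9, a factor of the early gonad, held 11.0 and 3.38 CPM, 3.25-fold higher (2.26 to 4.75). SOX9 is a gating gene, so its level in the class is fixed in part by the gate.

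**Figure D5:**
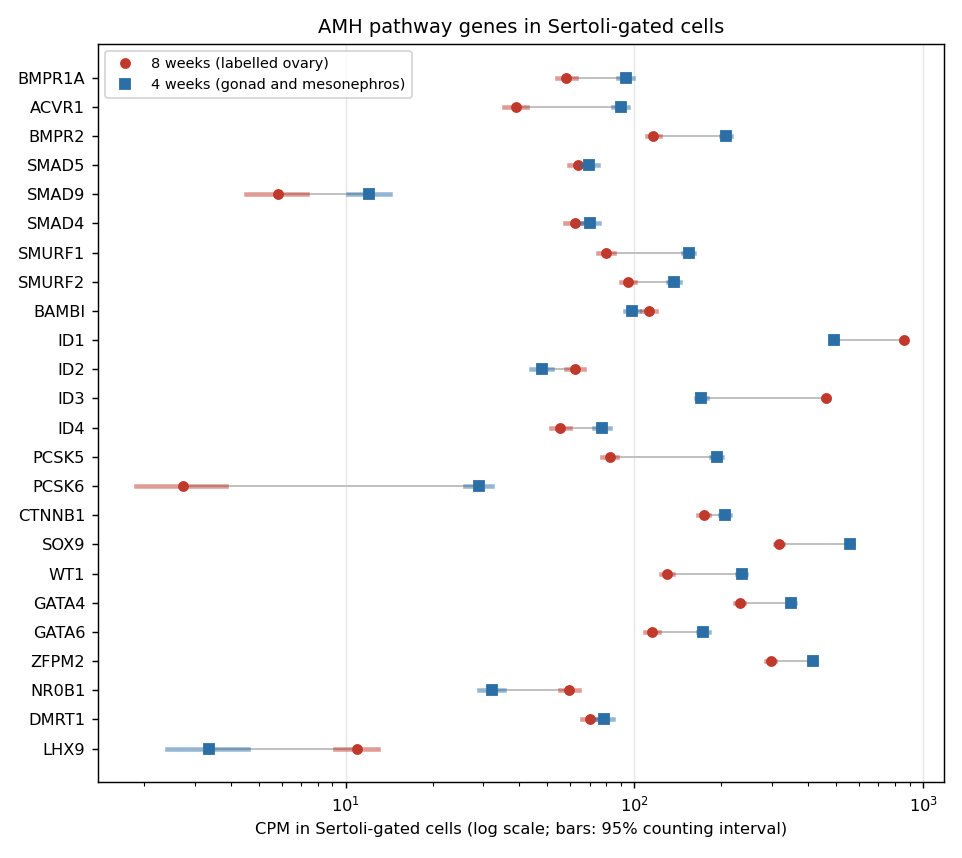
Levels in CPM (log axis) of the 24 named AMH pathway genes in Sertoli-gated cells, with 8 weeks as red circles, 4 weeks as blue squares and thick bars for 95% counting intervals. ID1, ID2, ID3, BAMBI, NR0B1 and LHX9 lie further right at 8 weeks, and the receptors, PCSK5, PCSK6 and SOX9 lie further left.

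In steroidogenic-gated cells 35 pathway genes had enough UMIs, of which 2 were at least 2-fold higher and 7 at least 2-fold lower at 8 weeks, with a median log2 ratio of -0.51 against -0.23 over all genes. Of all 15506 genes in this class, 5.08% were at least 2-fold higher and 13.2% at least 2-fold lower. ID3 (176 CPM at 8 weeks, 82.7 CPM at 4 weeks) and NR0B1 (46.7 and 16.1 CPM) were the higher ones. BMPR1B, ID4, PCSK6, SOX9, WT1, GATA6 and DMRT1 were the lower ones. SOX9 held 21.0 CPM at 8 weeks and 52.6 CPM at 4 weeks there, WT1 20.2 and 57.6 CPM and DMRT1 3.07 and 11.9 CPM. SOX9, WT1 and DMRT1 were thus lower at 8 weeks, as AMHR2 was in this class. Of the other Sertoli gating genes, HSD17B3 held 9.21 CPM at 8 weeks and 8.19 CPM at 4 weeks. DHH held 2.91 CPM at both stages, and PTGDS 43.0 and 55.7 CPM. The part of any of these genes in the AMHR2 difference was not tested. FOXL2, chosen after its values were seen, held 12.1 CPM in steroidogenic-gated cells at 8 weeks (75 UMIs, 52 of 321 cells) and 16.4 CPM at 4 weeks (62 UMIs, 41 of 195 cells), its highest level among the classes used here.

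The genes whose levels ran most like AMH were sought over 20 sums of class and library with at least 50 cells, among 8889 genes. The likeness is Pearson's r of log2(CPM + 10), and the sums share library, depth and free RNA, so it is a description. AQP8, a water channel, was nearest to AMH (r = 0.992), with 1124 CPM at 8 weeks and 749 CPM at 4 weeks in Sertoli-gated cells and 14.0 and 7.85 CPM in endothelial-gated cells. TAC3, the neurokinin B precursor, followed at r = 0.977, then LOC106832398 (0.970), NMB (0.969), UCMA (0.966), WNT6 (0.965), LOC106841793 (0.963), CCK (0.962), CA7 (0.944) and LOC123276340 (0.941). AQP8, LOC106832398, NMB, UCMA, WNT6 and CCK were higher at 8 weeks in Sertoli-gated cells as AMH was, CCK with 925 CPM against 333 CPM. TAC3, LOC106841793, CA7 and LOC123276340 were lower at 8 weeks there, LOC106841793 with 3513 CPM against 5345 CPM. None of the 10 was a gating gene.

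AMHR2 ran most like GPR37, an orphan receptor (r = 0.928), then CLCN2 (0.927), SPMIP8 (0.926), AQP5 (0.919), FBP2 (0.918), UCMA (0.914), LOC106846906 (0.913), CXCL11 (0.910), TAC3 (0.909) and SLC17A8 (0.903). UCMA and TAC3 stand in both lists. AMH itself ranked 46 for AMHR2, with r = 0.850 over the 20 sums. The list for AMHR2 rests on few UMIs and shared 5 of 10 genes with that from a pseudocount of 1 CPM and 1 of 10 with that from rank correlation.

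AMH and AMHR2 lie close to other genes, and reads of a neighbour could be counted for them. In the RefSeq annotation of the donkey assembly EquAss-T2T_v2, AMH stands between SF3A2 and JSRP1 and AMHR2 between SP1 and PRR13, and 0 genes overlap either. SF3A2, a splicing factor, held 42.5 CPM in Sertoli-gated and 23.3 CPM in endothelial-gated cells at 8 weeks, and 36.8 and 25.7 CPM at 4 weeks. JSRP1, a rare RNA, held 2.58 and 0.200 CPM at 8 weeks and 0.760 and 0 CPM at 4 weeks. SP1, a transcription factor, held 15.1 and 14.4 CPM at 8 weeks and 32.8 and 24.97 CPM at 4 weeks. PRR13 held 47.9 and 30.7 CPM at 8 weeks and 37.2 and 31.9 CPM at 4 weeks. Over endothelial-gated cells, AMHR2 itself stood 41.7-fold higher in Sertoli-gated cells (14.1 to 203) at 8 weeks and 32.3-fold (18.6 to 61.5) at 4 weeks. The part of neighbouring genes' reads in either member was not tested.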

How the data were processed

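The authors deposited raw UMI counts for every gene in every barcode, with no normalization. Per the file headers the software was Cell Ranger 7.1.0, while the submitters' processing notes name version 2.1.1. The kit was of the DNBelab C series, per the labels. No genome build, annotation or rule for intronic reads is given in the sources used here, so how AMH and AMHR2 reads were assigned is not known. The cell filter, gates, sums and ratios were computed here with Python 3.11.15, numpy 2.4.6, scipy 1.17.1 and pandas 2.3.3. A minimum of 200 genes per cell took out 3 barcodes at 8 weeks and 26 at 4 weeks, and no doublet caller was run.

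For each of 14 classes, every gating marker's fraction of a cell's UMIs was divided by its mean in the top 1% of cells, limited to 1 and averaged over the markers. A cell entered a class with a score of at least 0.15, at least 2 distinct markers and a lead of 1.5 times over the next class. Of the 5 steroidogenic gating genes 4 were used. RefSeq symbols were given to 768 locus identifiers. Levels are counts per 1000000 UMIs (CPM) with exact Poisson intervals at 95%, and ratios have exact conditional binomial intervals. Shares have Clopper-Pearson intervals, after thinning to 1000 UMIs unless given as without thinning. A count of 0 was given the limit of 3 counts. Genes with at least 10 UMIs over both libraries entered the counts past 2-fold, with 0.5 UMI added to each sum, and this step was tested on simulated data. Pathway genes are named at 50 CPM or more, or 2-fold apart with 10 UMIs or more, in the class with the most AMH or AMHR2. The genes most like each member are the 10 with the highest r. Replicates were not available, so no test was made. The members, marker lists, pathway list and rules were chosen with earlier results of these data known. Alternatives were stricter and looser gates, other filters on cells and counts, another scaling, another thinning depth and another measure of likeness.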

Additional observations from a re-analysis of the deposited data

Results flagged for a closer look

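AMH moved in opposite directions between the stages in 2 gated classes. Its ratio of 8 over 4 weeks was 1.33 (1.31 to 1.35) in Sertoli-gated cells, with 3935 CPM at 8 weeks and 2961 CPM at 4 weeks. In steroidogenic-gated cells the ratio was 0.711 (0.651 to 0.777), with 176 CPM at 8 weeks and 247 CPM at 4 weeks. The difference between the classes was not tested, since each stage is 1 library. Without the cells at 1000 CPM of AMH or more, steroidogenic-gated cells held 55.4 CPM at 8 weeks and 47.4 CPM at 4 weeks. The intervals (49.6 to 61.7 and 40.4 to 55.3) overlapped, so no direction between the stages was then resolved. The cells left out, 33 at 8 weeks and 40 at 4 weeks, also held SOX9 at 216 CPM at 8 weeks and 361 CPM at 4 weeks.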

How the results depend on the processing

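No paired analysis was possible because each stage is 1 library. Of 526 values recomputed under alternatives, 17 of the main results and 69 of the others moved by more than their counting interval or, for counts, by over 1.5 times. AMH in Sertoli-gated cells at 8 weeks was 3899 CPM with at least 3 gating markers. With gate scores of 0.1 and 0.2, both chosen after seeing the data, it was 3786 and 4393 CPM at 8 weeks and 2898 and 3017 CPM at 4 weeks, and its ratio was 1.31 and 1.46. With mixed cells put in their strongest gate, AMH at 4 weeks was 2868 CPM and the ratio 1.36, and scaled by the median of gene ratios the ratio was 1.48. AMHR2 in stroma at a gate score of 0.2 was 1.39 CPM at 4 weeks and its ratio 1.63 (0.860 to 3.47), on the other side of 1 from the 0.840 reported. Thinned to 2000 UMIs, 97.8% of Sertoli-gated cells at 8 weeks and 96.3% at 4 weeks held AMH, and 5.47% at 8 weeks held AMHR2. The genes most like AMHR2 shared 5 with those reported at a pseudocount of 1 CPM and 1 by rank correlation, and those most like AMH shared 8 and 7. The AMHR2 ratio in steroidogenic-gated cells stayed between 0.346 and 0.475, and the AMH ratio there between 0.418 and 0.953 under other gates, filters and scaling. Without cells at 1000 CPM of AMH, AMH there was 55.4 CPM at 8 weeks and 47.4 CPM at 4 weeks. These intervals overlapped, so the direction was then not resolved. In Sertoli-gated cells 2 to 3 pathway genes were at least 2-fold higher and 3 to 5 lower. The causes were not tested. Rare AMHR2 UMIs limit every class but Sertoli-gated cells, stroma at 4 weeks (38 UMIs) included.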
